A study of Mus musculus with 7 samples.

Results

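The genes that write, copy and remove DNA methylation were followed across 7 mouse RNA-seq libraries. The 9 members were taken by name and mapped to the Ensembl identifiers of the expression tables. They were Dnmt1 and Uhrf1 (maintenance), Dnmt3a, Dnmt3b and Dnmt3l (new methylation), Tet1, Tet2 and Tet3 (oxidation of methylcytosine) and Tdg (excision of the oxidised base). All 9 were found among 29267 genes, and all 9 passed the minimum of 1 TPM in every comparison. TPM is a read count corrected for transcript length and scaled so that all libraries have the same total.

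Fibroblasts of OG2 mice, which carry an Oct4GFP transgene, were infected with retroviruses for Oct4, Sox2, Klf4 and c-Myc and reprogrammed in mES medium (serum, LIF and vitamin C) or in 5C medium (N2 supplement, bFGF, LIF and vitamin C, without serum). Cells with and without green fluorescence were sorted from each medium, giving mES-Oct4GFP+ and 5C-Oct4GFP+ (positive) and mES-Oct4GFP- and 5C-Oct4GFP- (negative) cells. 5C-Oct4GFP+ cells were then carried, for 20 passages by the labels, either in naive medium (LIF, vitamin C and the inhibitors CHIR99021 and PD0325901), giving 5C-Oct4GFP+ (naive), or in primed medium (bFGF and activin A, then CHIR99021 and IWR-1, without vitamin C), giving 5C-Oct4GFP+ (primed). R1 ESCs-primed, with the same passage label, came from the R1 mouse embryonic stem cell line, which received no reprogramming factors. A figure legend of the study gives a much shorter culture for converted cells, and which duration holds for these libraries could not be settled. The 6 other libraries all came from cells that carry the reporter and received the retroviruses. Sorting rested on the reporter alone, and the primed medium cells no longer showed its fluorescence.

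Each group held 1 library, so no spread between cultures could be measured and no test between conditions was made. Intervals are exact 95% intervals of the ratio of 2 libraries. They cover the counting of reads only, and each compares those libraries, not the conditions. Gene positions are on GRCm38. Differences are on the log2(TPM + 1) scale, where 1 is 2-fold, and a gene was counted as different when it was at least 2-fold apart. The number 1 added to each TPM pulls differences of low genes toward 0. Library totals lay between 6108252 and 11496615 estimated reads, at which 1 read on a member was worth 0.0399 to 0.0651 TPM in the median. The labels were checked on marker genes. The 8 pluripotent cell markers summed to at least 2031 TPM in every library, but retroviral Oct4 can add to Pou5f1, and without Pou5f1 the other 7 summed to 194 TPM in the negative cells of mES medium, 496.6 TPM in those of 5C medium and at least 1558 TPM in the other 5 libraries. The 8 naive markers summed to 1538 TPM in the positive cells of mES medium, 807.8 TPM in those of 5C medium and 1285 TPM after naive conversion, and to between 7.29 and 82.57 TPM in the other 4 libraries. The 10 primed markers summed to 1478 and 1326 TPM in the primed libraries and to between 132.9 and 446 TPM elsewhere. The 10 fibroblast markers summed to 614.1 TPM in the negative cells of mES medium and 292.7 TPM in those of 5C medium, to 88.03 TPM after primed conversion and 252.2 TPM in R1 ESCs-primed, and to between 12.35 and 15.97 TPM in the other 3 libraries. In bulk RNA, fewer cells of a type and less RNA per cell cannot be told apart.

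Methylation of cytosine in CpG pairs is copied at each cell division by DNMT1, which UHRF1 brings to newly replicated DNA. DNMT3A and DNMT3B place methyl groups on unmethylated sites, and DNMT3L, which has no activity of its own, assists them. The TET enzymes oxidise methylcytosine with the help of iron and oxoglutarate, vitamin C sustains that reaction, and TDG cuts the oxidised base out for repair. Naive pluripotent cells are known for low genome methylation, and primed cells for high methylation with abundant Dnmt3b.

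The members did not move as a block. In 5C-Oct4GFP+ against mES-Oct4GFP+ cells, 4 of 9 members were at least 2-fold higher (Dnmt3a, Dnmt3b, Dnmt3l and Tet1), beside 13.7% of all genes tested, and none was lower, beside 13.5%. In 5C-Oct4GFP- against mES-Oct4GFP- cells, 4 were higher (Dnmt1, Uhrf1, Dnmt3b and Tet1), beside 9.68%, and none was lower, beside 10.1%. The study had picked several of these genes for being higher in that same contrast, so this direction is not independent of the choice. In mES-Oct4GFP+ against mES-Oct4GFP- cells, 4 were higher (Dnmt1, Uhrf1, Dnmt3l and Tet1), beside 17.9%, and Tet3 was lower, beside 28.8%. In 5C-Oct4GFP+ against 5C-Oct4GFP- cells, Dnmt3a, Dnmt3b, Dnmt3l and Tet1 were higher, beside 8.45%, and Tet3 was again lower, beside 22.6%. Of these, Dnmt3a was not past 2-fold in CPM (counts scaled to the library total, without length), at 0.24. The 4 sorted libraries enter these contrasts in pairs, so the contrasts are not independent of each other.

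On conversion to naive medium no member was 2-fold higher, beside 10% of genes, and 5 were lower (Dnmt3a, Dnmt3b, Dnmt3l, Tet1 and Tet3), beside 17.5%. Conversion to primed medium left Dnmt3b and Tdg higher, beside 13.7% of genes, and Dnmt3l, Tet1 and Tet2 lower, beside 16.1%. Set against the naive cells, the primed cells had 4 members higher (Dnmt3a, Dnmt3b, Tet3 and Tdg), beside 22.2%, and 3 lower (Dnmt3l, Tet2 and Uhrf1), beside 16.7%. Both conversions share the 5C-Oct4GFP+ library, which is labelled with 0 passages, so medium and time in culture cannot be told apart in them. The remaining pairs were close. 5C-Oct4GFP+ (primed) differed from R1 ESCs-primed in 1 member, Dnmt3l, which was lower, beside 5.09% of genes, with none higher, beside 2.3%. 5C-Oct4GFP+ (naive) differed from mES-Oct4GFP+ cells in Dnmt3l, which was higher, beside 2.49%, and in Tet2, which was lower, beside 6.27%.

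**Figure D1:**
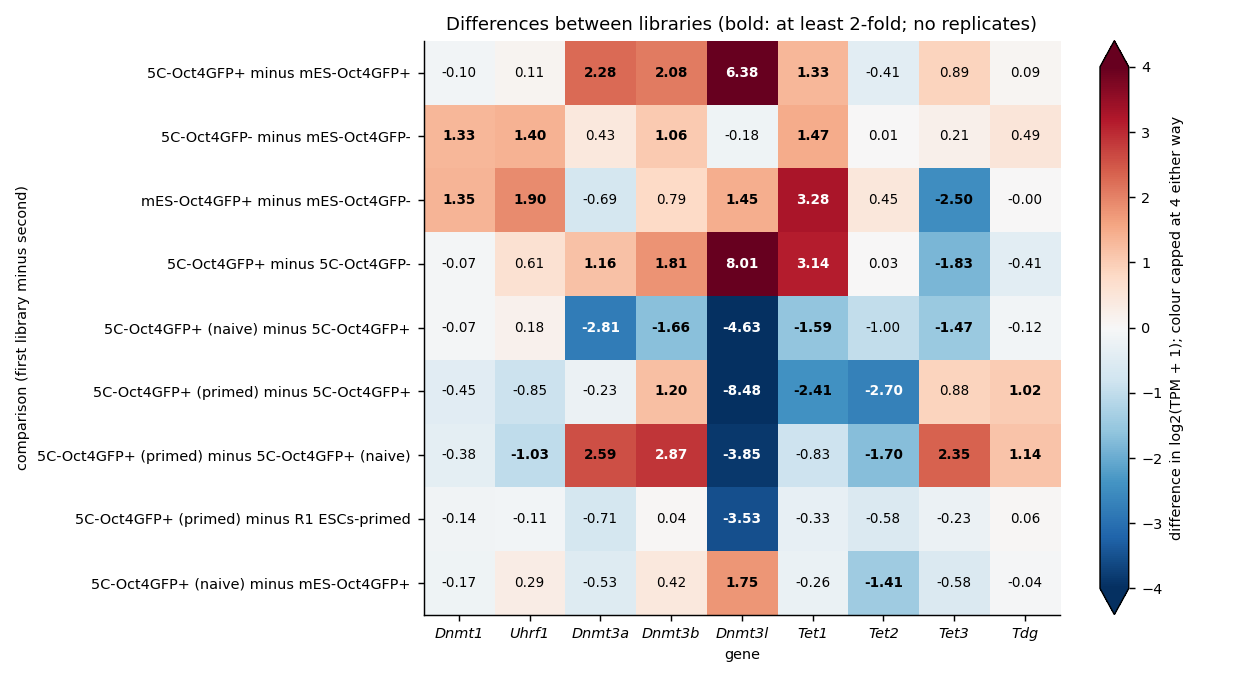
Differences of the 9 genes (columns) in the 9 comparisons (rows) in log2(TPM + 1), with red for higher in the first library, blue for lower, and bold for at least 2-fold. Dnmt3l spans the widest range, from -8.48 to 8.01, while the 2 rows for matched cell states at the bottom hold 3 bold values.

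Dnmt1 (ENSMUSG00000004099, chr9:20907209-20959888, minus strand), the maintenance methyltransferase, was low in 1 library. Dnmt1 had 160.54 TPM in positive and 62.17 TPM in negative cells of mES medium, 149.75 and 157.28 TPM in those of 5C medium, 142.82 TPM after naive and 109.70 TPM after primed conversion, and 120.69 TPM in R1 ESCs-primed. The mES-Oct4GFP- library was that one, and the highest level was 2.58-fold the lowest. In mES-Oct4GFP+ and 5C-Oct4GFP- cells, the 2 highest, the ratio of 1.02 had an interval that included 1 (0.971 to 1.07). The medium contrast was -0.10 in positive cells and 1.33 in negative cells, with TPM ratios of 0.933 (0.89 to 0.978) and 2.53 (2.38 to 2.69). The sign of the 5C-Oct4GFP+ minus 5C-Oct4GFP- difference was not settled, at -0.07 in TPM, 0.02 in FPKM, 0.03 in CPM and 0.09 after median-ratio rescaling.

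Uhrf1 (ENSMUSG00000001228, chr17:56303321-56323486, plus strand), which recruits DNMT1 to hemimethylated DNA, ranged more widely. Uhrf1 had 291.87 TPM in positive and 77.62 TPM in negative cells of mES medium, 315.44 and 205.90 TPM in those of 5C medium, 356.62 TPM after naive and 174.17 TPM after primed conversion, and 187.45 TPM in R1 ESCs-primed. The 3 libraries with high naive markers held the 3 highest levels, the primed cells lay below both 5C populations, and mES-Oct4GFP- cells were lowest. The primed library had 0.488 times the level of the naive one (0.468 to 0.51), past 2-fold on the log2 scale at -1.03. Uhrf1 transcripts outnumbered Dnmt1 transcripts in every library, from 1.25 per Dnmt1 transcript in mES-Oct4GFP- to 2.5 in 5C-Oct4GFP+ (naive), and 1.59 and 1.55 in the primed libraries.

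Both genes are expressed with DNA replication, and a list of 15 S phase genes (the Mcm2 to Mcm7 helicase subunits, Pcna, cyclin E genes and nucleotide synthesis genes) was set beside them. In 5C-Oct4GFP- against mES-Oct4GFP- cells, 8 of 15 S phase genes were 2-fold higher, beside 9.68% of all genes, with a list median of 1.01, beside 1.33 for Dnmt1 and 1.40 for Uhrf1. In mES-Oct4GFP+ against mES-Oct4GFP- cells, 12 of 15 were higher, beside 17.9%, with a median of 1.70, beside 1.35 and 1.90. The list ran from 0.41 to 1.63 in the first contrast and from 0.41 to 2.20 in the second. The maintenance pair stood within both ranges. In the first it lay near the top, with Dnmt1 above 13 and Uhrf1 above 14 of the 15 genes. In the second Dnmt1 lay above 5 and Uhrf1 above 9. In 5C-Oct4GFP+ against mES-Oct4GFP+ cells the list median was -0.36, with Dnmt1 (-0.10) above 13 and Uhrf1 (0.11) above 14. In primed cells the pair lay lower against the list, though for Dnmt1 this was not particular to them. Dnmt1 also lay below 13 of 15 in naive against 5C-Oct4GFP+ cells and below 12 in 5C-Oct4GFP+ against 5C-Oct4GFP- cells. S phase genes had a median difference of 0.01 between primed and naive cells, with none of 15 past 2-fold and a range from -0.64 to 0.62, whereas Uhrf1, at -1.03, lay below all 15 and Dnmt1, at -0.38, below 13. Against 5C-Oct4GFP+ cells, Uhrf1 was at -0.85 in primed cells, below all 15 S phase genes, whose lowest was at -0.47. Per S phase median, Uhrf1 was at 0.926 and 0.967 in the 2 primed libraries and at 1.17 to 2.16 in the other 5.

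**Figure D2:**
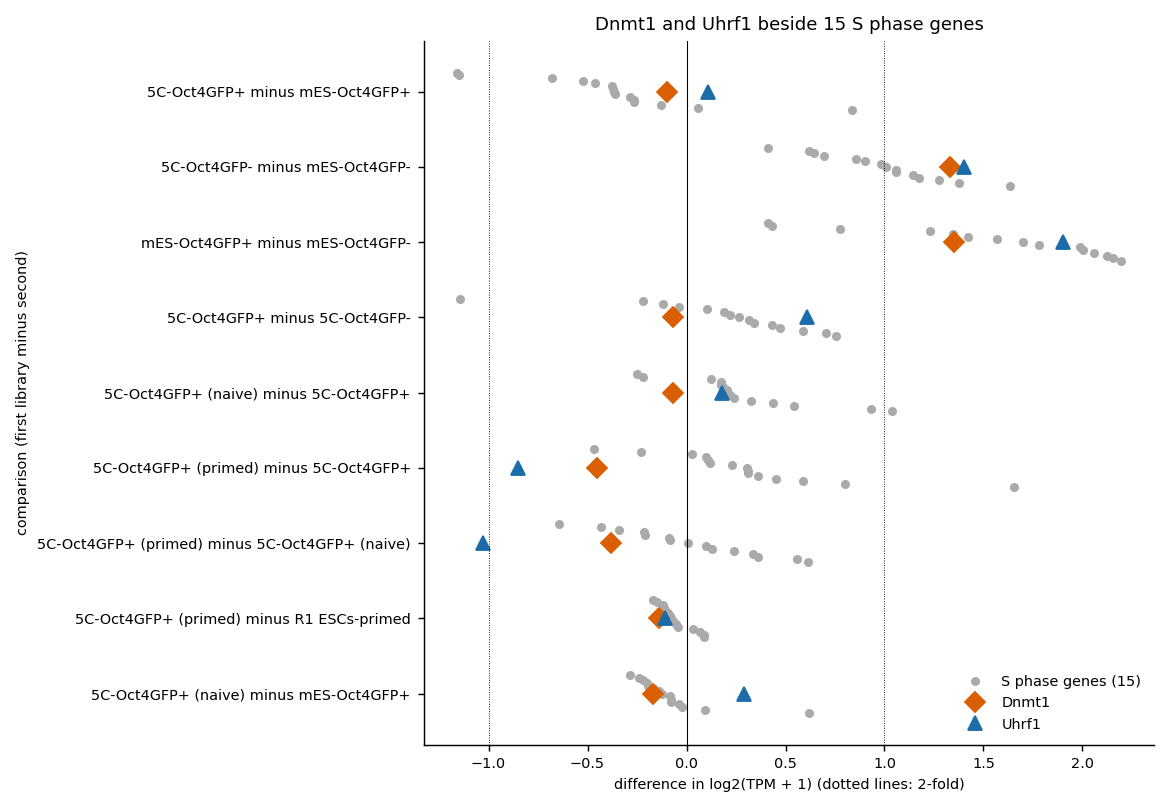
Differences in log2(TPM + 1) of Dnmt1 (diamonds), Uhrf1 (triangles) and 15 S phase genes (grey points) in the 9 comparisons, with dotted lines at 2-fold. Uhrf1 lies within the grey points between the sorted populations and to the left of all of them in both comparisons of 5C-Oct4GFP+ (primed) with cells of its own line.

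The start regions of this pair are shown because they carry matches to the E2F motif, the element of many replication genes. Windows of 250 bases before to 50 after a start site came from RefSeq (GRCm38.p6), and 9 of 9 members matched, with 16 windows. The motif was searched on both strands as TTTCCCGC, TTTGGCGC, TTTCGCGC or TTTGCCGC, which 2.26% of all 32851 windows hold. Among the members it was found in 2 windows, 1 of 3 of Dnmt1 (chr9:20952574-20952873, minus strand) and 1 of 2 of Uhrf1 (chr17:56304063-56304362, plus strand), both printed 5′ to 3′ along the gene with the matches in capitals.
Dnmt1: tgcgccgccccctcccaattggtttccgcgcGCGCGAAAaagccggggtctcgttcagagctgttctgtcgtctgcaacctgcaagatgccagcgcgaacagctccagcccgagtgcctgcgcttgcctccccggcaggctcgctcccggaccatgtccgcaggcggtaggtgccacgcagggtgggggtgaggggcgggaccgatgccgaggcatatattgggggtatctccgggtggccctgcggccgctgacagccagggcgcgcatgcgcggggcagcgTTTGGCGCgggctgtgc
Uhrf1: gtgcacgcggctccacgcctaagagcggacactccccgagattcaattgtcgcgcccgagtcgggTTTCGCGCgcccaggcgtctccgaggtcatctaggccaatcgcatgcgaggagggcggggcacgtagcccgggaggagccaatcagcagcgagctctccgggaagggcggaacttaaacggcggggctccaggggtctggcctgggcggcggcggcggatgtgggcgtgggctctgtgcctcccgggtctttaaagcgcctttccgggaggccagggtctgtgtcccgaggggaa
Dnmt1 held 2 matches, TTTCGCGC on the opposite strand at -219 and TTTGGCGC at 34 from the start site, and Uhrf1 held TTTCGCGC at -185. The transcript in the tables that starts in this Dnmt1 window has 5870 bases, and those of 5367 and 5248 bases start in windows without a match. The weighted length of Dnmt1 was 5314 to 5351 bases, so the shorter transcripts carried most of the weight. A match is a description of the letters, not a site of binding. A further 3 motifs were searched, the octamer ATTTGCAT (1.74% of all windows) in 0, CCAAT (37.4%) in 6 and GGGCGG (35.7%) in 12 of the 16 windows, and no match overlapped an E2F match.

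Of 8 partners of maintenance methylation, 7 were 2-fold higher in the positive than in the negative cells of mES medium, beside 17.9% of all genes, among them Hells, a remodeller needed for methylation of packed DNA, at 265.81 against 48.95 TPM, and Usp7, which deubiquitinates UHRF1 and DNMT1, at 307.05 against 121.69 TPM. Between the media, 3 of 8 were higher in the negative cells of 5C medium than in those of mES medium (Cdca7, Lig1 and, on 14 against 1 reads, Dppa3), beside 9.68% of all genes. Dppa3, whose protein keeps UHRF1 off chromatin, had 493.77 TPM in the positive cells of mES medium, 71.25 TPM in those of 5C medium and 388.48 TPM after naive conversion, and no more than 4.32 TPM in the other 4 libraries. Its level thus separated 5C-Oct4GFP+ from both of the other populations with high naive markers, while Uhrf1 itself was within 2-fold among the 3. Dppa3 is itself 1 of the 8 naive markers, so its level is part of their sums and not a separate result. Uhrf2, the relative of Uhrf1, was instead lowest in these 3, with 25.27 TPM in 5C-Oct4GFP+, 32.97 TPM in the naive and 48.81 TPM in the mES-Oct4GFP+ library, and with 72.59 TPM (mES medium) and 107.31 TPM (5C medium) in the negative cells.

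Dnmt3a (ENSMUSG00000020661, chr12:3806007-3914443, plus strand), a de novo methyltransferase, was high in 5C-Oct4GFP+ and primed cells. Dnmt3a had 19.19 TPM in positive and 31.55 TPM in negative cells of mES medium, 97.06 and 42.94 TPM in those of 5C medium, 12.95 TPM after naive and 82.76 TPM after primed conversion, and 135.56 TPM in R1 ESCs-primed. The naive and mES-Oct4GFP+ libraries were lowest, and no pair of neighbours in this order had an interval that included 1. 5C-Oct4GFP+ exceeded mES-Oct4GFP+ cells 5.06-fold (4.48 to 5.72), and the naive library had 0.133 times the 5C-Oct4GFP+ level (0.117 to 0.152).

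The mix of Dnmt3a transcripts also differed. RSEM, which shares the reads of a gene among its annotated transcripts, gave a mean transcript length weighted by abundance of 6891 bases in the negative cells of mES medium and 7220 bases in those of 5C medium. The positive cells had 4888 bases (mES medium) and 3565 bases (5C medium), the naive library 4209, the primed library 4048 and R1 ESCs-primed 3543. Both reporter-negative libraries thus had the longer transcripts, and these 2 also had the highest fibroblast marker sums, whose part in the difference was not tested. Long transcripts of 9685 and 8737 bases start at the upstream end of the gene (positions 3807030 and 3807160 of chromosome 12), and one of 5424 bases starts inside it at 3891744. The gene has 16 transcripts in the tables, the shortest of 369 bases. Short ones start near both places, such as 1115 bases at 3807058 and 2328 bases at 3891728. Outside the reporter-negative libraries the mean length lay below 5424 bases, so transcripts shorter than that also carried weight. Only the transcripts of 9685 and 8737 bases are longer than 5424, so the means of the reporter-negative libraries need some weight on the upstream start. How much weight, and which start the other libraries used, the mean length does not tell. The tables give no level for single transcripts, so their shares were not analysed here. The length enters TPM, and the counting intervals do not cover it. In CPM the 5.06-fold ratio of 5C-Oct4GFP+ to mES-Oct4GFP+ cells was 3.68. The naive library had 30.73 CPM against 185.3 in 5C-Oct4GFP+. In CPM Dnmt3a had 185.3 in the positive and 157 in the negative cells of 5C medium, a ratio of 1.18 in place of 2.26, and 50.37 against 107.6 in those of mES medium, a ratio of 0.468 in place of 0.608.

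**Figure D3:**
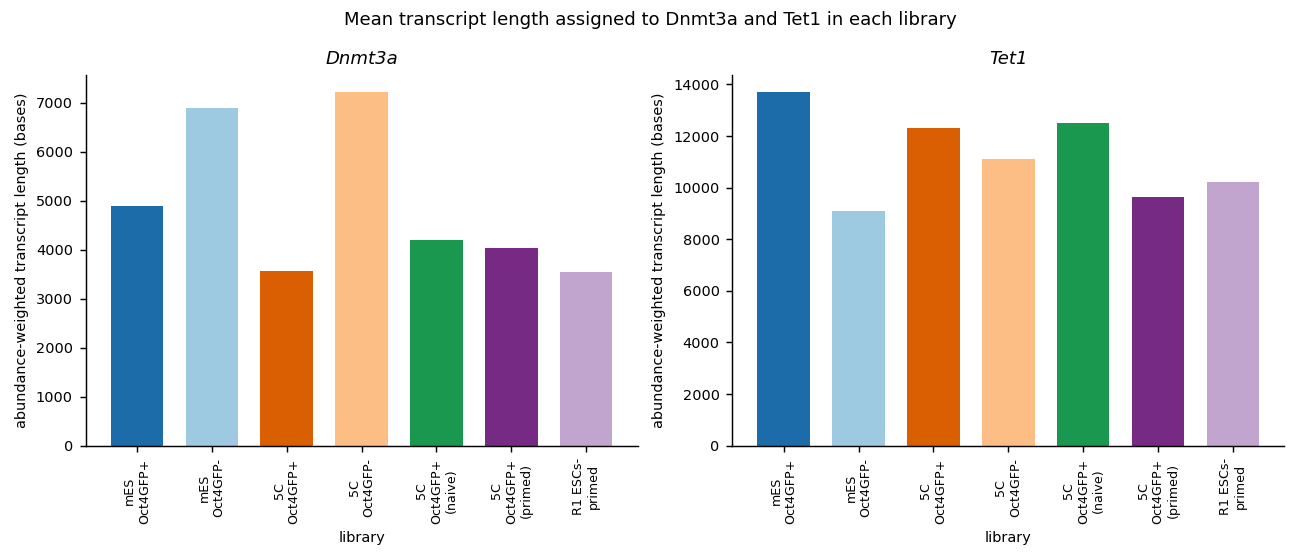
Abundance-weighted mean transcript length in bases of Dnmt3a (left) and Tet1 (right) in the 7 libraries, 1 bar per library, with axes from 0. Dnmt3a is longest in the 2 reporter-negative libraries, at 6891 and 7220 bases, and Tet1 ranges from 9084 bases in mES-Oct4GFP- to 13698 in mES-Oct4GFP+.

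The upstream and the internal start windows of Dnmt3a (chr12:3806910-3807209 and chr12:3891494-3891793, both plus strand) are shown with CpG pairs in capitals. Annotated transcripts of several lengths start in each of them.
Dnmt3a upstream: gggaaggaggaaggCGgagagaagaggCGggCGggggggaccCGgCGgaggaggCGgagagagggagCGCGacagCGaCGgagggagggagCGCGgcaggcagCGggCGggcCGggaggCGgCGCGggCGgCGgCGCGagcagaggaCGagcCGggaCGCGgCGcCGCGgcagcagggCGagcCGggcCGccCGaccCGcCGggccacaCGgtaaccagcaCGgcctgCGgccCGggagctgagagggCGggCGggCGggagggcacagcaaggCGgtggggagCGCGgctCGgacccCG
Dnmt3a internal: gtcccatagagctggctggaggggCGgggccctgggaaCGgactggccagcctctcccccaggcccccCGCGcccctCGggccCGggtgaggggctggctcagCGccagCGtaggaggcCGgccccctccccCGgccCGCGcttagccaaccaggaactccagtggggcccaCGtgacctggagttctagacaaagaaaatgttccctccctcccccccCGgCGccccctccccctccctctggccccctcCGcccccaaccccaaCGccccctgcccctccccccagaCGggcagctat
The upstream window held 47 CpG pairs, more than 98.6% of all windows, and the internal one 18, more than 70.3%. The median over all windows was 7.

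Dnmt3b (ENSMUSG00000027478, chr2:153649450-153687730, plus strand), the second de novo enzyme, reached its highest levels in primed cells. Dnmt3b had 85.81 TPM in positive and 49.36 TPM in negative cells of mES medium, 366.39 and 103.90 TPM in those of 5C medium, 114.87 TPM after naive and 843.89 TPM after primed conversion, and 822.53 TPM in R1 ESCs-primed. The 2 primed libraries stood far above the rest and within 1.03-fold of each other (1 to 1.05), and 5C-Oct4GFP+ lay between them and the naive populations. Its transcript length stayed between 3940 and 4066 bases, so the Dnmt3a shift had no counterpart here. 5C-Oct4GFP+ cells had 4.27 times the mES-Oct4GFP+ level (4.01 to 4.55), and primed cells 7.35 times the naive level (7.02 to 7.69). In TPM, Dnmt3b outnumbered Dnmt3a in all 7 libraries, by 1.56 to 1 in mES-Oct4GFP- at the least and 10.2 to 1 in 5C-Oct4GFP+ (primed) at the most. In CPM this order turned in mES-Oct4GFP-, where Dnmt3a held 52.7% and Dnmt3b 47% of the family. Reads from the antisense genes Dnmt3aos (at most 0.13 TPM) and Dnmt3bos (0.35 to 2.02 TPM) could not be told apart from those of the enzymes where they overlap, because the library kit keeps no strand.

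Dnmt3l (ENSMUSG00000000730, chr10:78041947-78063622, plus strand), the catalytically inactive cofactor, was high in 1 library. It had 525.34 TPM in 5C-Oct4GFP+, from 4731 reads. The naive library had 20.21 TPM, R1 ESCs-primed 16.03 TPM, the positive and negative cells of mES medium 5.31 and 1.31 TPM, the negative cells of 5C medium 1.04 TPM and the primed library 0.47 TPM. Those values rest on 153, 98, 28, 6, 7 and 2 reads, so the 3 lowest libraries could not be placed in order by counting alone, and the naive and R1 ESCs-primed libraries differed by no more than the counting error (1.26-fold, 0.972 to 1.64). The 5C-Oct4GFP+ level was 98.9 times that of mES-Oct4GFP+ (68.4 to 149) and 505 times that of 5C-Oct4GFP- cells (245 to 1257). From 5C-Oct4GFP+ the naive library had 0.0385 times the level (0.0325 to 0.0452) and the primed library 0.000895 times (0.000108 to 0.00323). The study names Dnmt3l among the genes that mark the 5C state, so its height there is a description.

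The primed libraries were 2-fold apart in Dnmt3l only among the 9 genes. 5C-Oct4GFP+ (primed) had 0.0293 times the R1 ESCs-primed level (0.0035 to 0.109). Naive markers were also higher in R1 ESCs-primed, at 19.72 against 7.29 TPM in sum with 5 against 2 of 8 at 1 TPM or more, and fibroblast markers were at 252.2 against 88.03 TPM. The part of either in the Dnmt3l difference was not tested. The cell line of origin, with or without reprogramming factors, cannot be told apart from the other differences between the 2 libraries.

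The window of the Dnmt3l start at position 78049842 (chr10:78049592-78049891, plus strand) is shown for contrast with that of Dnmt3a, again with CpG pairs in capitals. A transcript of 1676 bases starts there, and another, of 1657 bases, starts at 78049959, beyond the window. The weighted length was 1651 bases in 5C-Oct4GFP+, which does not tell which start was used.
Dnmt3l: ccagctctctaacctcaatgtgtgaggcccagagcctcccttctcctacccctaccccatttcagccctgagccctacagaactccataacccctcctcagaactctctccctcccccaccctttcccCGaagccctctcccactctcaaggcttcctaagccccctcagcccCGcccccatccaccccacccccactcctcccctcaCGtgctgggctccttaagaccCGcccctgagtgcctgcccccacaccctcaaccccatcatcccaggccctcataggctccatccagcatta
It held 4 CpG pairs, and the 2 other Dnmt3l windows held 6 and 3, below the median of all windows. The remaining members apart from Dnmt1 and Uhrf1 had 17 (Tet1) to 57 (Tet2).

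Within the Dnmt3 family the makeup changed with the state. Dnmt3l made up 53.1% of the summed TPM of the 3 genes in 5C-Oct4GFP+ cells, 13.7% in the naive library, 4.81% in mES-Oct4GFP+ and at most 1.65% in the other 4. Dnmt3b made up 91% after primed conversion and 84.4% in R1 ESCs-primed. Dnmt3a had its largest shares in the negative populations, 38.4% with mES medium and 29% with 5C medium. In TPM, Dnmt3l stood at 1.13 to 1 against Dnmt3a and Dnmt3b together in 5C-Oct4GFP+. These shares depend on the length estimate, and in CPM the Dnmt3l share of 5C-Oct4GFP+ was 32.1%, still the highest of the 7 libraries. Set against maintenance, the sum of Dnmt3a and Dnmt3b was 0.654 to 1.3 per Dnmt1 transcript in mES-Oct4GFP+, the negative and the naive libraries, 3.09 in 5C-Oct4GFP+, and 8.45 and 7.94 in the primed libraries.

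**Figure D4:**
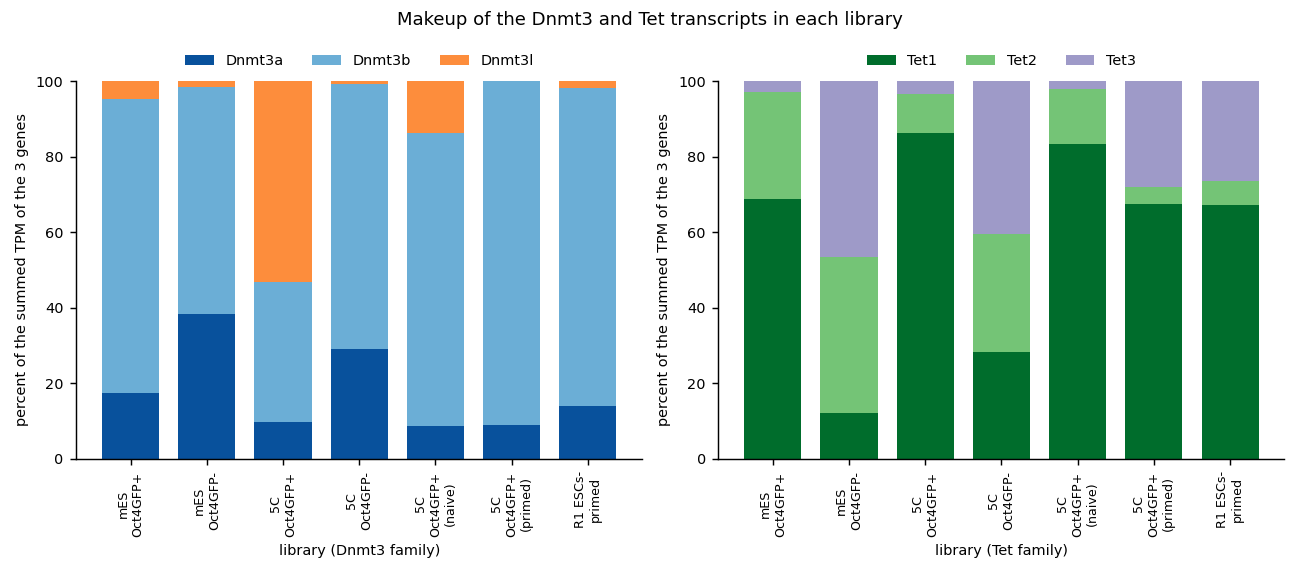
Share in percent of each gene in the summed TPM of Dnmt3a, Dnmt3b and Dnmt3l (left) and of Tet1, Tet2 and Tet3 (right) in the 7 libraries. Dnmt3l takes 53.1% of the left bar of 5C-Oct4GFP+, and Tet3 takes 46.6% and 40.5% of the right bars of the reporter-negative cells.

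Of 6 partners of new methylation on the list, 5 were measured, and Dnmt3c was not analysed here. Prdm14, a repressor of the Dnmt3 genes in naive cells, had 51.24 TPM in mES-Oct4GFP+, 34.93 in the naive and 20.46 in 5C-Oct4GFP+ library, no more than 1.88 in the negative and R1 ESCs-primed libraries, and was listed at 0 in 5C-Oct4GFP+ (primed). Nsd1, which writes the histone mark that DNMT3A reads, was 22.03 TPM in primed against 46.90 TPM in naive cells.

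Tet1 (ENSMUSG00000047146, chr10:62804570-62908996, minus strand), the main oxidase of pluripotent cells, followed the reporter. Tet1 had 51.77 TPM in positive and 4.43 TPM in negative cells of mES medium, 131.58 and 14.04 TPM in those of 5C medium, 43.11 TPM after naive and 23.86 TPM after primed conversion, and 30.17 TPM in R1 ESCs-primed. 5C-Oct4GFP+ was highest, both negative libraries were lowest, and every neighbour in this order differed beyond counting error. Positive cells had 11.7 times the negative level in mES medium (10 to 13.7) and 9.37 times in 5C medium (8.66 to 10.2). Conversion left 0.328 times the 5C-Oct4GFP+ level in naive (0.313 to 0.342) and 0.181 times in primed cells (0.171 to 0.192). Tet1 transcripts were also assigned different mean lengths, 13698 and 12292 bases in the positive cells of mES and 5C medium and 12521 in the naive library, against 9084 and 11095 in the negative cells and 9645 and 10236 in the primed libraries. In CPM the mES contrast was accordingly wider, at 384.6 against 19.97, a log2 difference of 4.20 in place of 3.28.

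Tet2 (ENSMUSG00000040943, chr3:133463679-133545139, minus strand), the second oxidase, had another pattern and was lowest in primed cells. Tet2 had 21.40 TPM in positive and 15.36 TPM in negative cells of mES medium, 15.87 and 15.49 TPM in those of 5C medium, 7.44 TPM after naive and 1.59 TPM after primed conversion, and 2.88 TPM in R1 ESCs-primed. The naive and both primed libraries lay below the 4 sorted ones, and the lower 3 of the sorted ones were not separated by counting (ratios of 1.02, 0.921 to 1.14, and 1.01, 0.9 to 1.13). The naive and primed libraries are labelled with 20 passages and the sorted ones with 0, so medium and time in culture cannot be told apart here. Primed cells had 0.1 times the 5C-Oct4GFP+ level (0.0798 to 0.125). The naive cells had 0.469 times (0.411 to 0.534), which lay just short of 2-fold on the log2(TPM + 1) scale, and 0.348 times the mES-Oct4GFP+ level (0.303 to 0.398). The gene has 1 transcript in the tables, of 9179 bases.

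Tet3 (ENSMUSG00000034832, chr6:83362373-83459084, minus strand), the oxidase of the egg and of many differentiated cells, was lower in positive than in negative cells of both media, opposite to Tet1. Tet3 had 2.22 TPM in positive and 17.27 TPM in negative cells of mES medium, 4.95 and 20.12 TPM in those of 5C medium, 1.15 TPM after naive and 9.95 TPM after primed conversion, and 11.87 TPM in R1 ESCs-primed. The negative libraries were highest, the primed ones next and the 3 with high naive markers lowest. The 4 libraries in which Tet3 was highest were also those in which the 10 fibroblast markers summed to 88.03 TPM or more. The 6 epithelial markers were highest in the same 4, with a mean log2(TPM + 1) of 5.08 to 6.86 against 3.24 to 4.97 in the other 3, and sums of 736.1 to 1622 against 507.3 to 729.7 TPM. The part of either list in the Tet3 level was not tested. Positive cells had 0.129 times the negative level in mES medium (0.0995 to 0.164) and 0.246 times in 5C medium (0.213 to 0.283), and primed cells 8.65 times the naive level (6.58 to 11.6). The study counts Tet3 among its primed markers, so its height there is a description. In 5C-Oct4GFP+ against mES-Oct4GFP+ cells the TPM ratio was 2.23 (1.71 to 2.94), and in primed against 5C-Oct4GFP+ cells 2.01 (1.74 to 2.33), yet neither reached 2-fold on the log2(TPM + 1) scale, at 0.89 and 0.88.

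The sum of the 3 Tet genes was 152.4 TPM in 5C-Oct4GFP+, 75.39 in mES-Oct4GFP+, and between 35.4 and 51.7 TPM in the other 5 libraries. Tet1 made up 86.3% of it in 5C-Oct4GFP+, 83.4% in the naive and 68.7% in the mES-Oct4GFP+ library. In the negative cells the family was spread, with Tet1, Tet2 and Tet3 at 12%, 41.4% and 46.6% with mES medium and at 28.3%, 31.2% and 40.5% with 5C medium. The 2 primed libraries had nearly the same makeup, with Tet1 at 67.4% and 67.2%, Tet2 at 4.49% and 6.41% and Tet3 at 28.1% and 26.4%.

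Among the 6 genes that partner TET enzymes or supply their cofactors, Cxxc5 and Cxxc4 bind unmethylated CpG and TET2. Both were 2-fold higher in primed than in 5C-Oct4GFP+ cells, beside 13.7% of all genes, and than in naive cells, beside 22.2%. Cxxc5 had 100.38 TPM in primed cells against 37.06 and 32.85. Cxxc4 rested on few reads, 78 in primed cells against 4 in 5C-Oct4GFP+ and 1 in naive cells. Idh1, which makes oxoglutarate, was lower in the positive cells of 5C medium, at 149.49 TPM against 311.86 TPM in those of mES medium, and was 329.04 TPM after naive conversion. No other gene of the list was past 2-fold in these 4 comparisons apart from Idh2, which was lower in primed cells than in both (104.98 TPM against 260.95 and 243.55), and Idh1 in primed against naive cells.

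Tdg (ENSMUSG00000034674, chr10:82629828-82650799, plus strand), the glycosylase that cuts out the oxidised base, was highest in primed cells. Tdg had 76.52 TPM in positive and 76.60 TPM in negative cells of mES medium, 81.35 and 108.24 TPM in those of 5C medium, 74.54 TPM after naive and 165.77 TPM after primed conversion, and 159.52 TPM in R1 ESCs-primed. The primed libraries were highest and not separated from each other (1.04-fold, 0.978 to 1.1), and the 4 lowest differed by less than counting error from one neighbour to the next. Primed cells had 2.22 times the naive level (2.07 to 2.39) and 2.04 times the 5C-Oct4GFP+ level (1.91 to 2.18). The second value was at the edge of the 2-fold limit at 1.02, and it was not past it after median-ratio rescaling of the libraries.

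**Figure D5:**
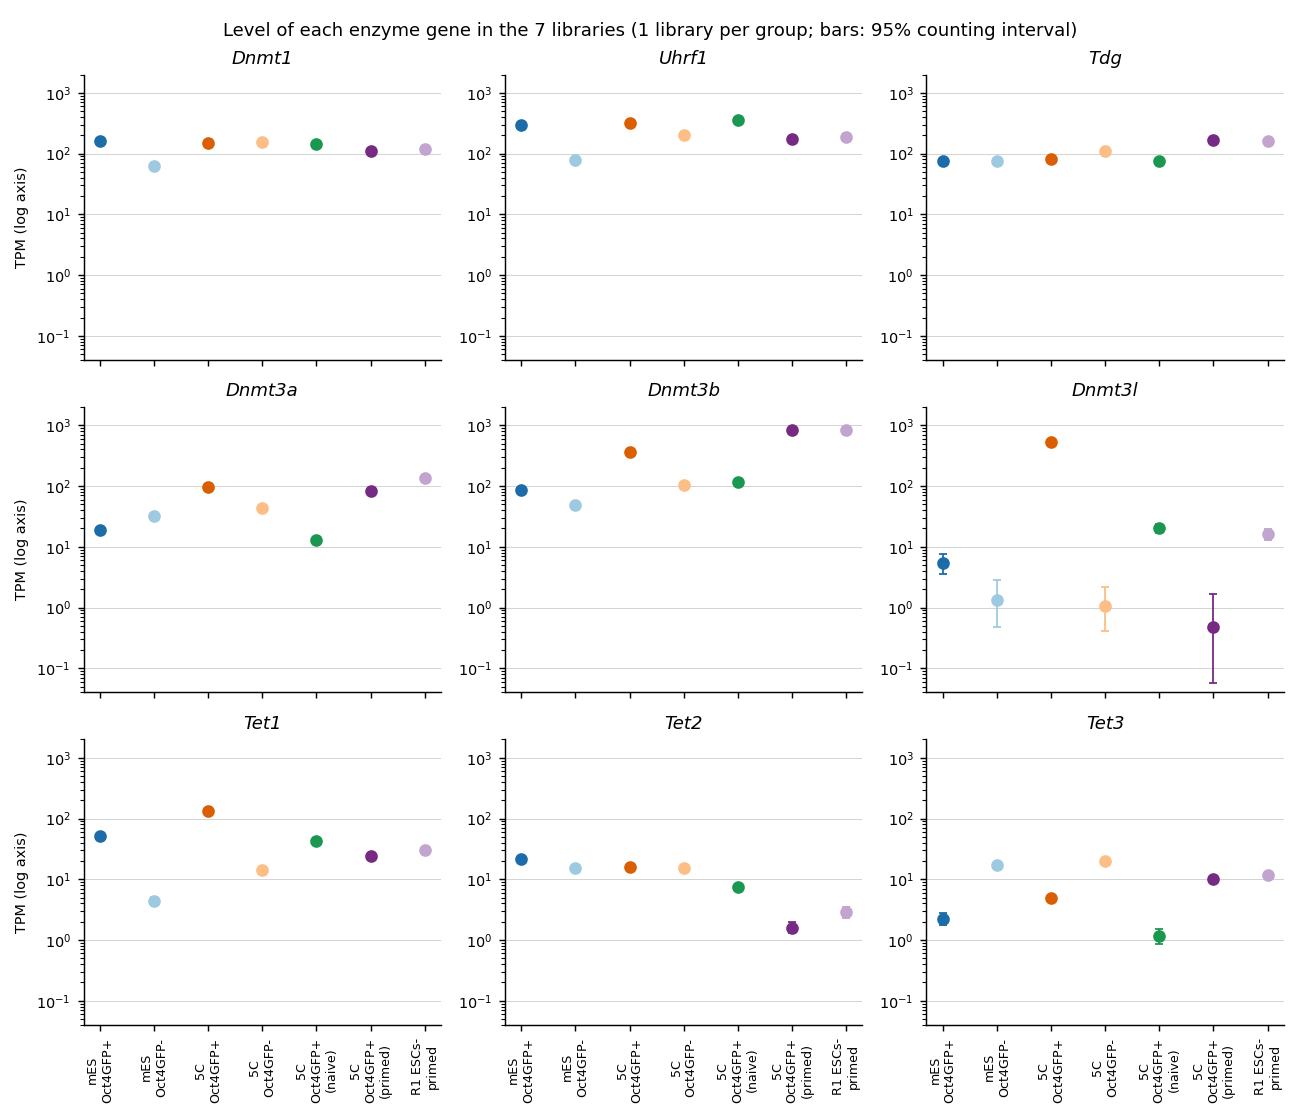
TPM of the 9 genes in the 7 libraries on a log axis, with exact 95% counting intervals and 1 library per group. Dnmt1 stays between 62.17 and 160.54 TPM, while Dnmt3l runs from 0.47 TPM in 5C-Oct4GFP+ (primed) to 525.34 TPM in 5C-Oct4GFP+.

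Downstream of TDG, 18 base excision and deamination genes were listed, of which 17 passed 1 TPM in each comparison. In 5C-Oct4GFP+ against mES-Oct4GFP+ cells 4 were higher, beside 13.7% of all genes, and 1 was lower, beside 13.5%, led by Gadd45g, which has been tied to repair-based demethylation, at 145.74 against 10.26 TPM, and by Apobec2 at 4.13 against 22.04 TPM. Both went the other way on naive conversion, with Gadd45g at 14.26 TPM and Apobec2 at 22.38 TPM. The negative cells of mES medium had 174.48 TPM of Gadd45g, so 5C-Oct4GFP+ was not its highest library. In primed cells 6 of 17 were lower than in 5C-Oct4GFP+ cells, beside 16.1% of all genes, and none was higher, beside 13.7%, with Gadd45g at 7.45 TPM and Apobec1, an RNA-editing deaminase, at 1.27 against 27.07 TPM. Tdg was thus higher in primed cells while the list median was -0.39 beside 0.06 over all genes.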

How the data were processed

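RNA-seq of 7 libraries (TruSeq RNA v2 from 1 µg total RNA, Illumina MiSeq) was analysed, 1 library per group. The authors processed the reads with RSEM against a synthetic transcriptome. Bowtie and the build mm10 are named in the submitters' processing notes, and tool versions are not given in the sources used here. Expected counts, as deposited, estimate the reads of each gene without normalization. The TPM and FPKM values were made by the authors from counts and effective length, and the deposited length column is the mean transcript length weighted by abundance. Groups came from the sample labels.

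From these files, differences of log2(TPM + 1) were computed, with a minimum of 1 TPM in either library and a limit of 2-fold. Ratio intervals are exact Clopper-Pearson intervals at 95% from expected counts rounded to whole numbers, and level intervals are exact Poisson intervals. The code was tested on simulated data. The alternatives were FPKM, CPM from the expected counts, median-ratio rescaling, a pseudocount of 0.1, and a minimum of 5 TPM or none. Gene positions came from GENCODE (GRCm38, the same assembly as mm10) and start windows from RefSeq. Named genes were the 9 members in every comparison, Dppa3, Prdm14, Hells, Usp7, Uhrf2 and Dnmt3c always, the 2 genes of each list with the largest difference, and for each member the 3 genes with the most similar profile; Idh2, Nsd1, Cdca7 and Lig1, where they fell outside it, were named after their values were seen. The members and lists were chosen with earlier results of these data known. Intervals were computed in scipy 1.17.1 and tables in pandas 2.3.3 with numpy 2.4.6 under Python 3.11.15, and figures were drawn in matplotlib 3.10.9.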

Additional observations from a re-analysis of the deposited data

Results flagged for a closer look

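Dnmt1 went opposite ways between the media in the sorted populations. The 5C minus mES difference in log2(TPM + 1) was -0.10 in Oct4GFP+ and 1.33 in Oct4GFP- cells, and the difference between them was -1.42. Read the other way, Oct4GFP+ minus Oct4GFP- was 1.35 in mES medium and -0.07 in 5C medium, which is a difference of 1.42 from the same 4 libraries. The small negative values carry little weight, since the -0.07 became 0.02 in FPKM, 0.03 in CPM and 0.09 after median-ratio rescaling.

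Dnmt3a also went opposite ways. Oct4GFP+ minus Oct4GFP- was -0.69 in mES medium and 1.16 in 5C medium, and the difference between them was -1.85. In CPM the 5C value was 0.24. With 1 library for each population, none of these differences was tested.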

How the results depend on the processing

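Of 18 counts of members past 2-fold, each computed under 6 other settings, 10 of 108 values differed, 2 of them by more than 1.5 times. In CPM, 2 members in place of 1 were lower in mES-Oct4GFP+ than in mES-Oct4GFP- cells, as Dnmt3a joined Tet3. After median-ratio rescaling, 1 member in place of 2 was higher in primed than in 5C-Oct4GFP+ cells, as Tdg dropped out. The other 8 differed by 1 member. Tet3 joined those higher with 5C than with mES medium in positive cells (5 in place of 4, pseudocount of 0.1 and CPM) and in primed than in 5C-Oct4GFP+ cells (3 in place of 2, CPM). Dnmt3a left those higher in positive cells of 5C medium (3 in place of 4, CPM). On naive conversion Tet2 joined the lower ones (6 in place of 5, pseudocount of 0.1 and CPM) and Tet3 left them (4, minimum of 5 TPM). Tet1 joined those lower in primed than in naive cells (4 in place of 3, CPM). Of 81 member differences, the sign changed in 2 with FPKM, 3 with CPM, 4 with median-ratio rescaling and 0 with a pseudocount of 0.1, none of them a difference past 2-fold. The largest shifts were 0.64, 0.92, 0.16 and 1.37 in that order, the last for Dnmt3l in primed against 5C-Oct4GFP+ cells, which rests on 2 reads. Another scaling moved the median of all genes by more than 0.1 in 4 comparisons, by 0.14 in the largest case (5C-Oct4GFP+ minus 5C-Oct4GFP-, median-ratio rescaling). No paired analysis was possible because each group held 1 library, and for the same reason no library could be left out within a group. Depth limits the order of Dnmt3l among the libraries with 2 to 7 reads.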

Other observations

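Readers of methylated CpG bind the mark that the DNMT enzymes place. In mES-Oct4GFP+ against mES-Oct4GFP- cells, 5 of 10 readers were at least 2-fold lower, beside 28.8% of all genes, and 1 was higher, beside 17.9%, with a list median of -0.90 beside -0.15 over all genes. Zbtb4, a zinc finger reader, had 0.62 against 31.93 TPM, and Mbd2, which recruits the NuRD complex, had 32.62 against 107.44 TPM. In 5C-Oct4GFP+ against 5C-Oct4GFP- cells 4 of 10 were lower, beside 22.6%, and none was higher, beside 8.45%, with Zbtb4 at 1.89 against 7.62 TPM. Zbtb38 had 29.39 TPM in the positive cells of 5C medium against 13.76 TPM in those of mES medium. It was the only 1 of 10 readers past 2-fold there, beside 13.7% of all genes higher. Zbtb38 had 9.70 TPM in naive and 4.07 TPM in primed cells. The negative cells had 32.49 TPM (mES medium) and 21.22 TPM (5C medium), so 5C-Oct4GFP+ was not its highest library. Of 10 methyl donor cycle genes, Mat2a, which makes S-adenosylmethionine, had 347.84 TPM in mES-Oct4GFP+, 109.17 in 5C-Oct4GFP+, 253.73 in the naive and 292.35 in the primed library, so 5C-Oct4GFP+ was the low one of these 4. The negative cells of mES medium had 103.33 TPM, so 5C-Oct4GFP+ was not its lowest library.

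The genes with the profile most like each member over the 7 libraries were found among 11804 genes, by the root mean square distance between centred log2(TPM + 1) profiles. For Uhrf1 the nearest was Cdt1, a replication licensing factor, at 0.10, and for Dnmt1 it was Dtl, at 0.13. Nbea was nearest to Tet3 at 0.11, Ptrh2 to Tdg at 0.12, Arhgap22 to Dnmt3a at 0.21, Gm14325 to Tet2 at 0.32, Zbtb8a to Tet1 at 0.37 and Ina to Dnmt3b at 0.38. The nearest to Dnmt3l, Ube2dnl1, was at 1.36. Distances grow with a gene's own spread, so they are not on one scale across members. The root mean square of the centred profile was 2.73 for Dnmt3l and 0.44 for Dnmt1. Ube2dnl1 was also highest in 5C-Oct4GFP+, at 32.04 TPM, and next in the naive library, at 5.36 TPM. These distances are descriptions over 7 libraries that differ in depth, and they carry no test.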
